A study of Mus musculus with 9 samples.

Results

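The D cyclins, their kinases and the RB and E2F proteins they act on form the switch that takes a cell from G1 into S phase. D cyclins are made when growth factor signals arrive, bind CDK4 or CDK6, and the active kinases phosphorylate RB and its relatives p107 and p130. Phosphorylated RB releases E2F transcription factors, which then switch on genes of DNA replication. In blood stem and progenitor cells this switch is known to set how readily a resting cell enters the cycle, with CDK6 known for its part in the exit of stem cells from quiescence.

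The genes described here are Ccnd1, Ccnd2, Ccnd3, Cdk4, Cdk6, Rb1, Rbl1 (p107), Rbl2 (p130), E2f1 and E2f2, 10 of the 37882 genes in the deposited table. They were chosen by symbol alone, each symbol matched 1 row, and all 10 passed the filter on low values. No threshold on RPKM or on a fold change entered the rule, but the symbols were selected on knowledge of earlier results from the same libraries. Fold changes and p-values below are therefore a description of where these genes lay in a fit to all genes, and not independent evidence.

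Expression was measured by RNA sequencing in LSK cells, sorted from mouse bone marrow as lacking lineage markers and carrying Sca1 and cKit, a population rich in blood stem and progenitor cells. K36M mice carried rtTA, the doxycycline-dependent activator, in Rosa26 and H3K36M in Col1a1, an H3.3 transgene with lysine 36 replaced by methionine. K9M mice carried rtTA in Rosa26 and H3K9M in Col1a1, an H3.3 transgene with lysine 9 replaced by methionine. Control mice, called rtTA, carried rtTA in Rosa26 and no histone transgene. There were 3 mice and 3 libraries in each of these groups. All were 6 to 8 weeks old, on a mixed B6/129 background, and all drank water with 2 mg/ml doxycycline and 10 mg/ml sucrose. A transgene for unmutated H3.3 was not among the groups, so against rtTA the mutation and the presence of such a transgene cannot be told apart. The labels do not give which B6 or 129 alleles each mouse carried near any gene, so strain alleles and transgene cannot be told apart either.

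Values are RPKM, which scales reads to transcript length and library size. Depth, read from the steps between the lowest values, was approximately 15860000 (K9M 3) to 50310000 (K36M 3) reads per library. At that depth the members rested on about 347 reads in the lowest case (E2f2) and about 182031 in the highest (Cdk6). Each of the 10 LSK markers checked (among them Kit, Ly6a, Cd34 and Flt3) reached 1 RPKM in at least 1 library of every group. The summed RPKM of these markers was 722 to 729 in K36M, 797 to 935 in K9M and 787 to 984 in rtTA. Kit stood at 53.3 to 74.2 RPKM in K36M, 81.1 to 92.0 in K9M and 88.1 to 102.5 in rtTA. In K36M against rtTA 9 of the 10 had a negative fold change and 1 a positive one. That was Spi1, at a mean of 50.8 RPKM in K36M, 39.0 in K9M and 40.2 in rtTA. The summed RPKM of 10 mature granulocyte markers was 186 to 427 in K36M, 454 to 1090.0 in K9M and 724 to 6381 in rtTA, with the highest sum in rtTA 3. Of these markers Cxcr2 went the other way in K36M, at a mean of 10.8 RPKM against 5.88 in rtTA. For 5 granulocyte-monocyte progenitor markers it was 1107 to 3431 in K36M, 603 to 1302 in K9M and 803 to 1292 in rtTA. For 10 erythroid markers it was 197 to 336 in K36M, 165 to 253 in K9M and 97.1 to 168 in rtTA. Most of the K36M sum was Hbb-bt, at 101.3 to 206 RPKM in K36M, 5.66 to 40.1 in K9M and 9.80 to 14.4 in rtTA, whereas Car1 averaged 39.4 RPKM in K36M, 97.1 in K9M and 56.05 in rtTA. For 8 B lineage markers it was 31.6 to 38.03 in K36M, 20.3 to 25.7 in K9M and 38.4 to 52.3 in rtTA. For the 4 lineage markers of the depletion it was 8.98 to 13.7 in K36M, 5.41 to 10.7 in K9M and 10.3 to 59.6 in rtTA. For 7 T and NK markers it was 103 to 148 in K36M, 124 to 133 in K9M and 91.7 to 97.4 in rtTA, nearly all of it Nkg7 (98.4 to 145 in K36M, 122 to 130 in K9M and 89.3 to 94.3 in rtTA), while Cd3e, Cd3d, Cd3g and Cd8a stayed under 1 RPKM in every library. For 6 stroma and endothelium markers it was 26.0 to 34.4 in K36M, 17.1 to 20.7 in K9M and 17.7 to 24.5 in rtTA, nearly all of it Pecam1 (25.1 to 34.1 in K36M, 16.5 to 20.03 in K9M and 16.6 to 23.7 in rtTA), while the other 5 stayed under 1 RPKM in every library. No marker of these lists was at 0 throughout a group. The part of these cell types in the values below was not tested, and in sorted bulk cells fewer cells of a type and less RNA per cell cannot be told apart.

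**Figure D1:**
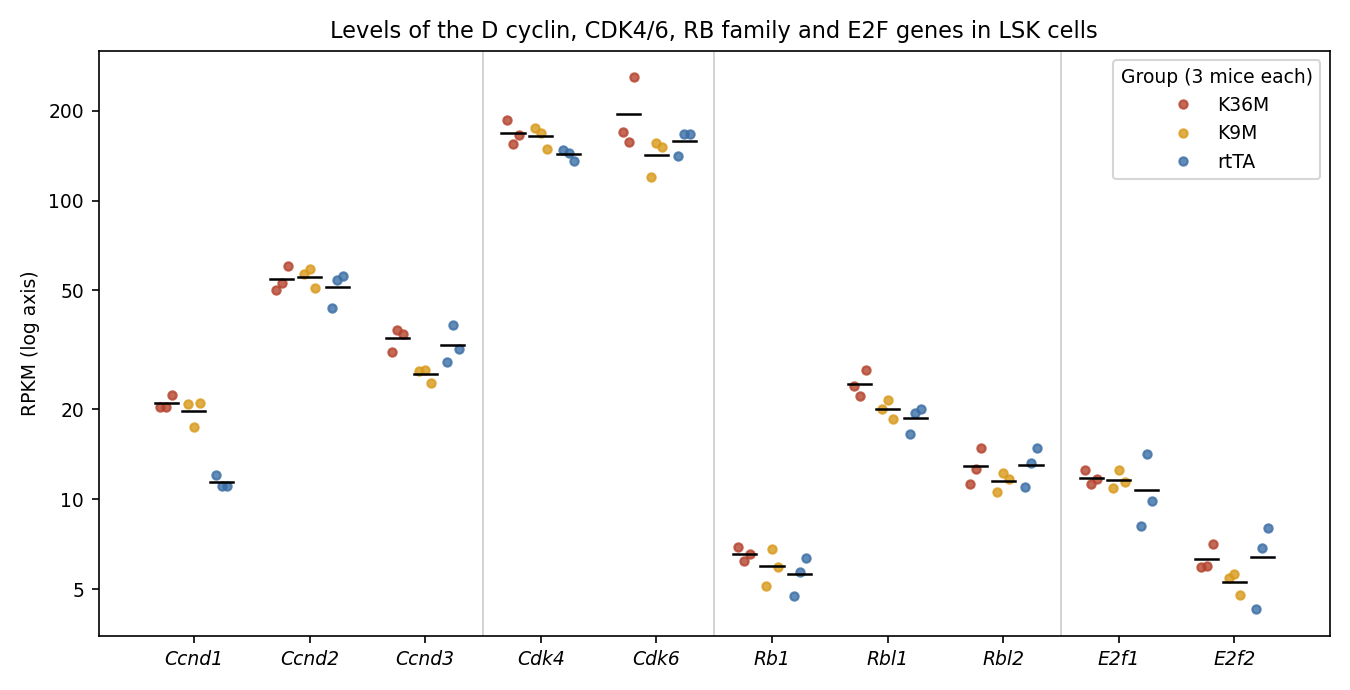
RPKM of each gene (log axis) in every library, 1 point per mouse, with a bar at the mean of the 3 mice of a group. Ccnd1 is the gene whose K36M points (20.4 to 22.3) and K9M points (17.5 to 21.0) all lie well above the rtTA points (11.1 to 12.1), while for 7 of the other 9 genes the K36M points overlap the rtTA points.

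The order of levels was similar in every group. The kinase genes stood highest, with Cdk6 at 195 ± 55.3 RPKM in K36M, 143 ± 19.7 in K9M and 158 ± 15.1 in rtTA (SD, n = 3 each). Cdk4 stood at 168 ± 15.8 RPKM in K36M, 164 ± 13.5 in K9M and 143 ± 6.65 in rtTA, and the ranges of Cdk4 and Cdk6 overlapped in every group. Ccnd2, Ccnd3 and Rbl1 followed in that order, with the ranges of Ccnd2, Ccnd3 and Rbl1 apart from each other in every group. Ccnd1 held the next place after Rbl1 in K36M and in K9M, with overlapping ranges, whereas in rtTA it came after Rbl2 and its range overlapped those of Rbl2 and E2f1. Rb1 and E2f2 were the lowest and overlapped in every group.

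Ccnd1, which encodes cyclin D1 (ENSMUSG00000070348, mm10 chromosome 7, 144929931 to 144939925), was higher in both mutants. It stood at 20.4, 20.4 and 22.3 RPKM in K36M, at 20.8, 17.5 and 21.0 RPKM in K9M and at 12.1, 11.1 and 11.1 RPKM in rtTA. Every K36M and every K9M library lay above every rtTA library, and the mutants overlapped each other. Ccnd1 rose 1.84-fold by the ratio of means in K36M against rtTA, or by 0.85 on the log2(RPKM + 0.5) scale (SE 0.10, 95% interval 0.62 to 1.09, limma adjusted p = 0.0108). In K9M against rtTA it rose 1.73-fold, or by 0.76 on that scale (SE 0.10, 95% interval 0.53 to 0.996, limma adjusted p = 0.0367). Both comparisons share the rtTA libraries. Between K36M and K9M the difference was 0.09 (95% interval -0.14 to 0.32, limma adjusted p = 0.692). Among the 18 alternatives the K36M call held in 16 and ended without K36M replicate 1 (limma adjusted p = 0.0545) and without K36M replicate 3 (0.0556), with adjusted p between 0.007 and 0.0556 in all. The K9M call held in 5 of 18 and ended, among others, without each K9M library, each K36M library and rtTA replicates 2 or 3, with limma adjusted p between 0.0136 and 0.211, while the fold change stayed between 0.72 and 0.85.

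Ccnd1 was the 1 member called in K36M against rtTA and in K9M against rtTA, and 0 members were called between K36M and K9M. Over all 12926 tested genes, limma called 1.5% in K36M against rtTA, 0.116% in K9M against rtTA and 2.52% in K36M against K9M. Genes called higher, as Ccnd1 was, made up 0.572% in K36M and 0.0928% in K9M against rtTA. With the replicate number as a block, 301 genes in place of 194 were called in K36M against rtTA, and Ccnd1 was again the 1 member called. The pairing of K36M and rtTA libraries by number was taken from correlations in these same values. The larger count is therefore not independent of that choice, and the K9M libraries, which did not pair, were blocked too. At an unadjusted p under 0.05 there were 2 members in each comparison, against 19.1%, 7.11% and 18.8% of all tested genes. The median fold change of the 10 genes was 0.19 in K36M against rtTA (0.015 over all tested genes), 0.09 in K9M against rtTA (0.0072) and 0.15 in K36M against K9M (0.0079).

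**Figure D2:**
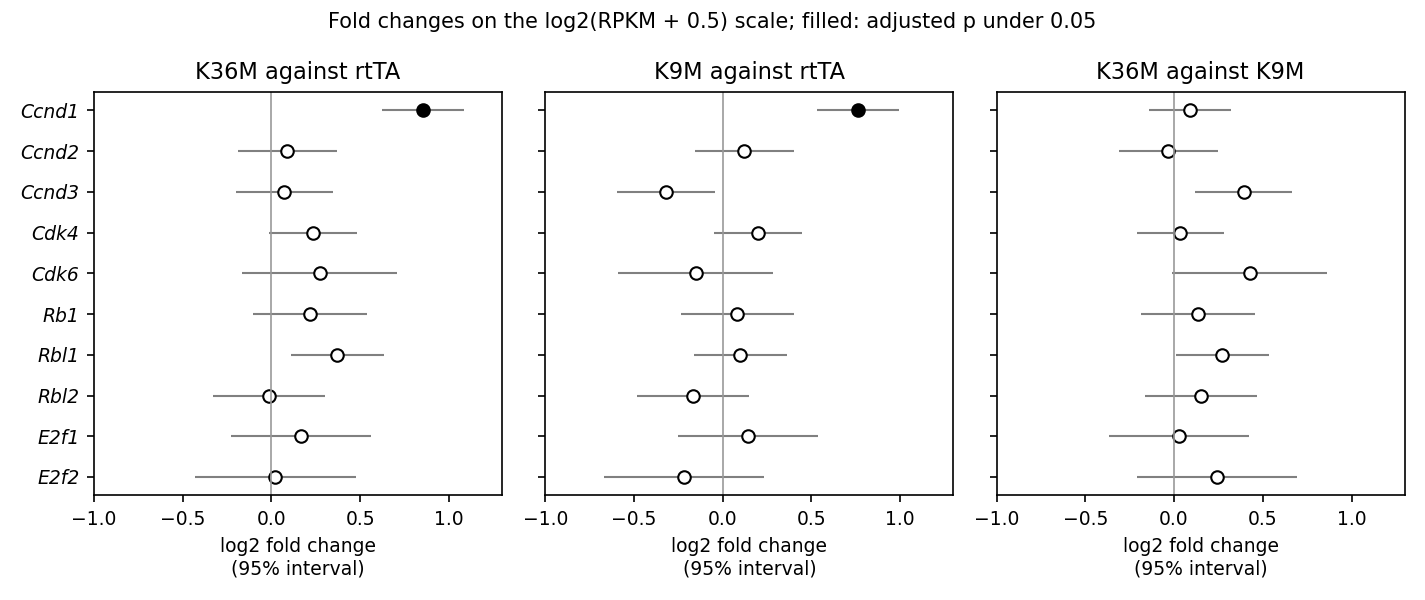
Log2 fold change of each gene with its 95% interval (horizontal axis) in the 3 comparisons, from the limma fit to all 9 libraries. Filled points mark an adjusted p under 0.05, which only Ccnd1 had, at 0.85 in K36M and 0.76 in K9M against rtTA.

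The surroundings of Ccnd1 were looked at after its values had been seen. Within 1000000 bases of the gene 6 other genes were tested, and 0 were called by limma in any of the 3 comparisons. Of all tested genes 1.5% were called in K36M against rtTA, 0.116% in K9M against rtTA and 2.52% in K36M against K9M. In K36M against rtTA their fold changes lay between -0.21 (Tpcn2, a lysosomal channel gene) and 0.44 (Ppfia1, a liprin gene). In K9M against rtTA they lay between -0.65 (Fgf3, a fibroblast growth factor gene) and 0.15 (Fadd, a death receptor adaptor gene). Cttn (0.39 in K36M against rtTA) and Ppfia1 were higher in every K36M library than in any rtTA or K9M library. Of all tested genes 11.6% were higher without overlap in K36M against rtTA, and 14.5% in K36M against K9M. Fadd, Fgf3, Oraov1 and Tpcn2 overlapped in both comparisons, and in K9M against rtTA all these neighbours overlapped. Oraov1 is transcribed from the opposite strand and shares 1100 exonic bases with Ccnd1, 23.4% of the exonic length of Ccnd1, and whether reads were counted by strand is not given in the sources used here. Oraov1 stood at 3.91, 3.64 and 3.34 RPKM in K36M, at 4.03, 3.81 and 3.88 RPKM in K9M and at 3.62, 3.99 and 4.18 RPKM in rtTA, so its mutant and rtTA values overlapped, while those of Ccnd1 did not.

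**Figure D3:**
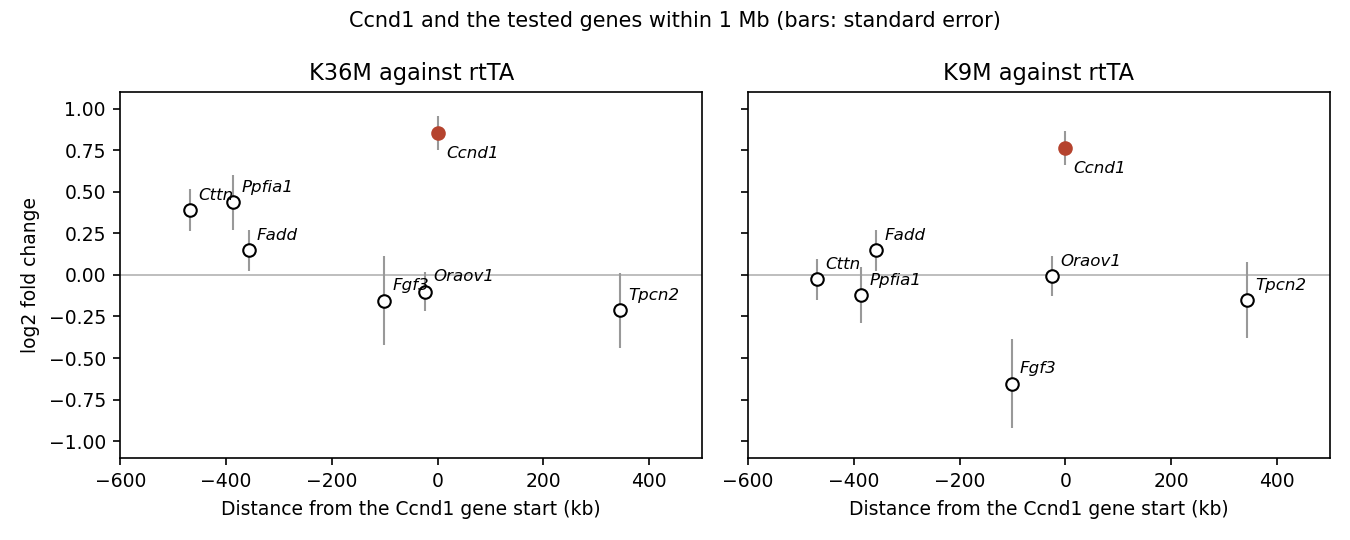
Log2 fold change with its standard error (vertical axis) of Ccnd1 (red) and of the 6 other tested genes within 1000000 bases, by distance of their start from the Ccnd1 start in kb. Ccnd1 lies at 0.85 and 0.76, and the other genes lie between -0.65 and 0.44.

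By pattern across the 9 libraries, the genes most like Ccnd1 were Eif5al3-ps (Pearson r = 0.964), Nlrp1b (0.962) and Xaf1 (0.958). Eif5al3-ps is a processed copy of a translation factor gene, Nlrp1b encodes an inflammasome sensor and Xaf1 a partner of the apoptosis inhibitor XIAP. Like Ccnd1, each was higher in every mutant library than in any rtTA library. Eif5al3-ps stood at 51.8, 43.3 and 51.003 RPKM in K36M, at 41.6, 43.7 and 39.1 RPKM in K9M and at 4.05, 3.31 and 1.08 RPKM in rtTA. Xaf1 stood at 6.15, 8.09 and 8.85 RPKM in K36M, at 7.70, 5.35 and 8.93 RPKM in K9M and at 3.18, 3.58 and 3.47 RPKM in rtTA. Nlrp1b stood at 1.45, 1.56 and 1.68 RPKM in K36M, at 1.49, 1.42 and 1.7002 RPKM in K9M and at 0.189, 0.198 and 0.424 RPKM in rtTA. Nlrp1b (71153102 to 71230733) and Xaf1 (72301629 to 72313733) both lie on chromosome 11, which also holds the transgene site Col1a1 (94936224 to 94953042). Ccnd1 lies on chromosome 7 and Eif5al3-ps on chromosome 5. These r values are chosen as the highest among all tested genes and carry the shared group difference.

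Ccnd2, which encodes cyclin D2 (ENSMUSG00000000184, chromosome 6, 127125162 to 127152193), was the most abundant D cyclin in all 9 libraries. It stood at 50.1, 53.04 and 60.2 RPKM in K36M, at 56.9, 58.8 and 51.1 RPKM in K9M and at 43.6, 54.4 and 55.8 RPKM in rtTA. The groups overlapped in all comparisons. Its difference was 0.09 in K36M (95% interval -0.19 to 0.37) and 0.12 in K9M against rtTA (95% interval -0.15 to 0.40), with limma adjusted p of 0.741 and 0.864.

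Ccnd3, which encodes cyclin D3 (ENSMUSG00000034165, chromosome 17, 47505051 to 47599691), had its lowest values in K9M. It stood at 31.2, 36.8 and 35.7 RPKM in K36M, at 26.8, 27.1 and 24.5 RPKM in K9M and at 28.8, 38.2 and 31.8 RPKM in rtTA. Every K9M library lay below every other library. The difference was -0.32 in K9M against rtTA (SE 0.12, limma adjusted p = 0.631) and 0.39 in K36M against K9M (SE 0.12, limma adjusted p = 0.128), and neither passed. Without rtTA 2 the K9M against rtTA value was -0.21. Bysl, on the opposite strand, shares 361 exonic bases with Ccnd3, 4.11% of the exonic length of Ccnd3. In K36M against rtTA Bysl was called higher (0.65, limma adjusted p = 0.0391), while Ccnd3 differed by 0.074 (limma adjusted p = 0.789). In K36M against K9M Bysl was called higher (0.58, limma adjusted p = 0.0425), and Ccnd3 differed by 0.39. In K9M against rtTA Bysl differed by 0.064 (limma adjusted p = 0.926) and Ccnd3 by -0.32. The part of Bysl reads in the Ccnd3 values was not tested. A processed copy, Ccnd3-ps, 96.3% identical over 881 bases, had at most 0.310 RPKM in any library.

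As a share of the summed D cyclin RPKM, Ccnd1 made up 19.1% ± 0.826 in K36M, 19.5% ± 2.45 in K9M and 12.1% ± 1.95 in rtTA (SD, n = 3 each). Ccnd3 made up 31.4% ± 1.71 in K36M, 25.7% ± 0.455 in K9M and 34.4% ± 2.32 in rtTA. The summed level itself was 110.03 ± 8.24 RPKM in K36M, 102 ± 4.25 in K9M and 95.6 ± 9.94 in rtTA. In every mutant library the Ccnd1 share (16.9% to 21.8%) was above that of every rtTA library (10.7% to 14.3%), while the summed levels overlapped. In K9M the larger Ccnd1 share stood beside a smaller Ccnd3 share.

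**Figure D4:**
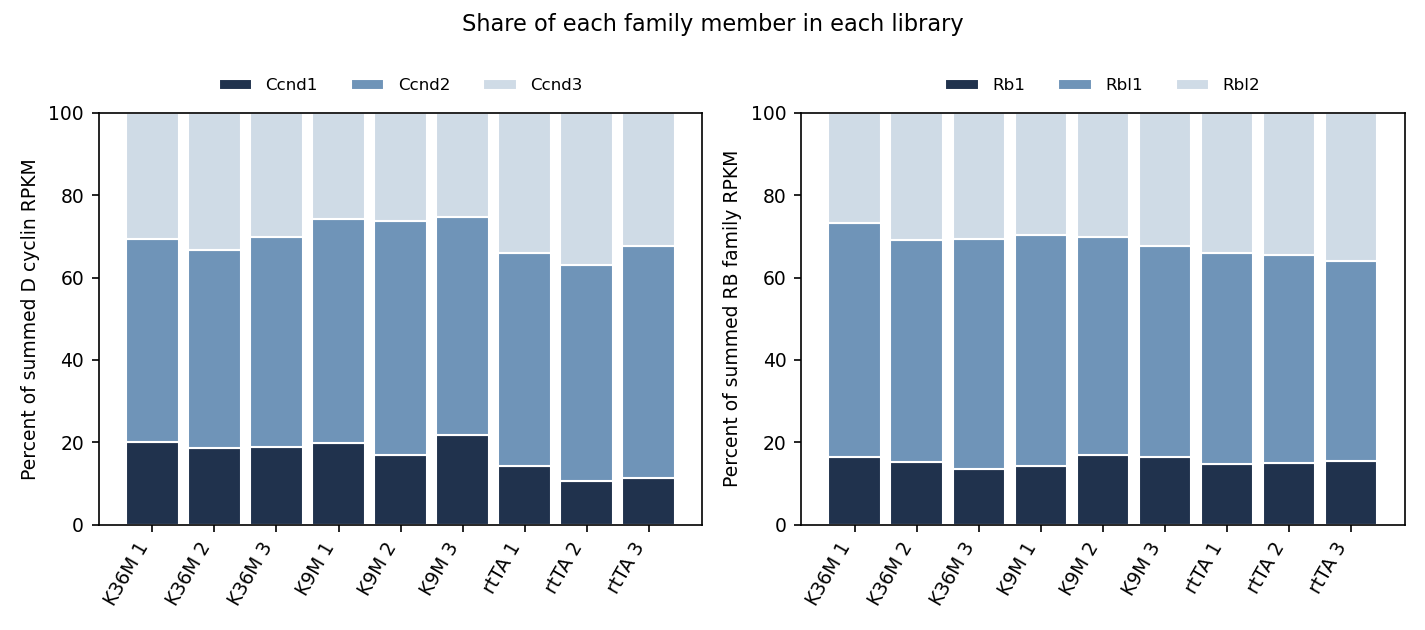
Share of each gene in the summed RPKM of its family (vertical axis, percent) in each of the 9 libraries, for the D cyclins on the left and the RB family on the right. The Ccnd1 segment is 16.9% to 21.8% in the mutants and 10.7% to 14.3% in rtTA, and the Rbl2 segment is smaller in the mutants (26.8% to 32.3%) than in rtTA (34.1% to 35.9%).

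Cdk4 (ENSMUSG00000006728, chromosome 10, 127063534 to 127067920) encodes the D cyclin kinase found in most dividing cells. It stood at 185, 154 and 165 RPKM in K36M, at 175, 168 and 149 RPKM in K9M and at 148, 145 and 135 RPKM in rtTA. Every mutant library lay above every rtTA library, by a narrow margin between K9M 3 and rtTA 1. The difference was 0.24 in K36M (SE 0.11, limma adjusted p = 0.282) and 0.20 in K9M against rtTA (SE 0.11, limma adjusted p = 0.754), and neither passed. With quantile normalization these were 0.11 and 0.07. Tspan31, on the opposite strand, shares 641 exonic bases with Cdk4, 19.7% of its exonic length, and its fold changes against rtTA were 0.00065 in K36M and 0.0076 in K9M.

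RefSeq promoter entries on GRCm38.p6, the assembly named mm10, were found for 7 of 10 members (Ccnd3, Cdk4, Cdk6, Rbl1, Rbl2, E2f1 and E2f2). The 250 bases before each start were searched on both strands for an E2F motif (TTTNGCGC), an E-box (CACGTG, a MYC site), a CRE core (ACGTCA), an AP-1 motif (TGANTCA), a GC box (GGGCGG) and a CCAAT box (CCAAT), none of which contains another. Cdk4 and, further on, Rbl1 are shown because they were higher in every K36M library than in any rtTA library and held the most E-boxes and the E2F match among these windows. The Cdk4 window (chr10:127063285-127063534, plus strand) is given 5′ to 3′ with its E-boxes in capitals.
Cdk4: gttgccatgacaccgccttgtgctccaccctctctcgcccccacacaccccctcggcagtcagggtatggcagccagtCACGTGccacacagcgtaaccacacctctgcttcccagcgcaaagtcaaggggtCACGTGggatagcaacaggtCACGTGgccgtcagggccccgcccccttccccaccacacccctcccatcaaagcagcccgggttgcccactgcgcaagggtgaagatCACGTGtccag

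Cdk4 held 4 E-boxes, beginning 172, 118, 98 and 11 bases before its start, and Cdk6 held 1, where 6.02% of 32851 promoter windows of this length held at least 1. No AP-1 match was found in the windows of these 7 genes (6.75% of all windows held one). CRE cores (6.47% of all windows) were in the E2f1 window and in 1 of the Ccnd3 windows. GC boxes (32.7%) were in windows of Ccnd3, Cdk4, Rbl1, E2f1 and E2f2, and CCAAT boxes (33.8%) in windows of Ccnd3 and E2f2. A match is a run of letters, not a measured binding site. The RefSeq start lies 466 bases past the GENCODE gene start for E2f1 and 2408 bases past it for Cdk6. For the second windows of Ccnd3 and E2f2 it lies 88416 and 8388 bases past the gene start. The Ccnd3 CRE core and CCAAT box and the E2f2 GC box were only in those second windows.

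Cdk6 (ENSMUSG00000040274, chromosome 5, 3341485 to 3531008), the kinase more restricted to blood and other particular lineages, varied most within K36M. It stood at 170.1, 157 and 259 RPKM in K36M, at 120.1, 156 and 151 RPKM in K9M and at 141, 166 and 167 RPKM in rtTA. K36M 3 lay far above the other 8 libraries, and the K36M against rtTA difference was 0.27 with it (SE 0.19, limma adjusted p = 0.489) and 0.053 without it (0.14 with quantile normalization and all libraries). In K36M against K9M the difference was 0.43 (SE 0.19, limma adjusted p = 0.281), with every K36M library above every K9M library, the nearest being K36M 2 at 156.9 and K9M 2 at 156.4 RPKM. Without K36M 3 that difference was 0.21. The K9M against rtTA difference was -0.15, and -0.034 without K9M 1. Cdk6 made up 53.1% ± 6.97 of the Cdk4 plus Cdk6 RPKM in K36M, 46.4% ± 5.07 in K9M and 52.5% ± 3.40 in rtTA (SD, n = 3 each), with overlapping groups. Its nearest patterns were those of Ap1g1 (Pearson r = 0.966 over 9 libraries), Fam126b (0.965) and Creb1 (0.959), all highest in K36M 3.

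Among the RB family, Rbl1, which encodes p107 and is known to rise as cells enter the cycle, was the most abundant (ENSMUSG00000027641, chromosome 2, 157145893 to 157204534). It stood at 23.9, 22.1 and 27.04 RPKM in K36M, at 20.02, 21.5 and 18.5 RPKM in K9M and at 16.6, 19.5 and 20.1 RPKM in rtTA. Every K36M library lay above every other library. The K36M against rtTA difference was 0.37 (SE 0.12, 95% interval 0.11 to 0.63, limma adjusted p = 0.139), the largest of the members after Ccnd1, and it did not pass. In K9M against rtTA it was 0.10 (SE 0.12, limma adjusted p = 0.883). The nearest patterns were those of Bub1b, a mitotic checkpoint kinase gene (Pearson r = 0.986 over 9 libraries), Sf3a1 (0.984) and Cbfb (0.981). Bub1b stood at 35.8, 33.97 and 44.99 RPKM in K36M, at 26.2, 29.5 and 25.9 RPKM in K9M and at 20.1, 26.7 and 27.9 RPKM in rtTA.

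Of the 7 members with a promoter window, Rbl1 was the 1 with an E2F match (TTTNGCGC), and that motif was in 1.13% of the 32851 windows. Ccnd1, Ccnd2 and Rb1 had no window. The E2f1 window lies before a start 466 bases past its GENCODE gene start, and other forms of an E2F site were not searched. The Rbl1 window (chr2:157204535-157204784, minus strand, 5′ to 3′) is shown with the match in capitals, which begins 18 bases before the start.
Rbl1: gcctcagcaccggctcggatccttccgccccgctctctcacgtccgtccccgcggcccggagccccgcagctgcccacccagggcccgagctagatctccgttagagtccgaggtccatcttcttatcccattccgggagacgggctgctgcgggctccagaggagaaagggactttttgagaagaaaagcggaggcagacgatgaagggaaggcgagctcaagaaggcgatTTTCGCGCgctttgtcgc

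Rbl2 encodes p130, the family member that with E2F4 forms the repressor complex of resting cells (ENSMUSG00000031666, chromosome 8, 91070057 to 91123844). It stood at 11.2, 12.7 and 14.8 RPKM in K36M, at 10.5, 12.2 and 11.7 RPKM in K9M and at 11.02, 13.2 and 14.8 RPKM in rtTA, with all groups overlapping. Its difference was -0.011 in K36M (95% interval -0.33 to 0.30) and -0.17 in K9M against rtTA (95% interval -0.48 to 0.15), with limma adjusted p of 0.979 and 0.840. Without rtTA 3 the K9M value was -0.071, and without rtTA 1 it was -0.28. Rb1, the founding tumour suppressor of the family (ENSMUSG00000022105, chromosome 14, 73183673 to 73325822), stood at 6.90, 6.20 and 6.58 RPKM in K36M, at 5.11, 6.83 and 5.93 RPKM in K9M and at 4.74, 5.70 and 6.35 RPKM in rtTA. These groups overlapped, and the differences against rtTA were 0.22 in K36M (95% interval -0.10 to 0.54) and 0.08 in K9M (95% interval -0.24 to 0.40), with limma adjusted p of 0.442 and 0.922. Without rtTA 1 the K36M value was 0.11. Exons of Rb1 overlap those of Rcbtb2 (8.11% of the exonic length of Rb1) and Lpar6 (6.78%), both on the opposite strand. Rcbtb2 was called lower in K36M against K9M (-0.59, limma adjusted p = 0.0371). Against rtTA it had -0.53 in K36M (limma adjusted p = 0.0618). Lpar6 had -0.36 in K36M and -0.68 in K9M against rtTA, neither called. Rbl2 shares 693 exonic bases (9.17%) with Aktip, at -0.14 in K36M and -0.092 in K9M against rtTA. It shares 892 (11.8%) with Gm45464, which has no deposited value.

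In shares of the summed RB family RPKM, Rbl1 made up 55.5% ± 1.45 in K36M, 53.5% ± 2.45 in K9M and 50.2% ± 1.32 in rtTA (SD, n = 3 each). Rbl2 made up 29.4% ± 2.30 in K36M, 30.7% ± 1.47 in K9M and 34.8% ± 0.933 in rtTA. Every mutant library had a smaller Rbl2 share and a larger Rbl1 share than every rtTA library, though the nearest Rbl1 shares were 51.3% in K9M 3 and 51.2% in rtTA 1. Rb1 made up 15.1% ± 1.43 in K36M, 15.8% ± 1.34 in K9M and 15.0% ± 0.389 in rtTA, with overlapping groups.

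The activator E2F genes were variable in the controls. E2f1 (ENSMUSG00000027490, chromosome 2, 154559407 to 154569892) stood at 12.5, 11.2 and 11.7 RPKM in K36M, at 10.9, 12.5 and 11.4 RPKM in K9M and at 8.15, 14.1 and 9.88 RPKM in rtTA. E2f2 (ENSMUSG00000018983, chromosome 4, 136172394 to 136196057) stood at 5.94, 6.00 and 7.05 RPKM in K36M, at 5.44, 5.62 and 4.76 RPKM in K9M and at 4.29, 6.89 and 8.01 RPKM in rtTA. For both, the rtTA range took in all mutant values. The E2f1 difference against rtTA was 0.17 in K36M (95% interval -0.23 to 0.56) and 0.14 in K9M (95% interval -0.25 to 0.53), with limma adjusted p of 0.656 and 0.889. For E2f2 it was 0.023 in K36M (95% interval -0.43 to 0.48) and -0.22 in K9M (95% interval -0.67 to 0.23), with limma adjusted p of 0.967 and 0.855, and the K9M value was -0.46 without rtTA 1 and -0.046 without rtTA 3. In K36M against K9M all E2f2 values were higher, with a difference of 0.24 (limma adjusted p = 0.572). The genes most like E2f2 in pattern were Inpp5b (Pearson r = 0.988 over 9 libraries), Epn1 (0.975) and Cdc25a (0.968). Of these, Cdc25a encodes a phosphatase that activates CDKs.

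Groups did not overlap for 3 of 10 members in K36M against rtTA, all higher (Ccnd1, Cdk4 and Rbl1), where 22.3% of all tested genes did not overlap (11.6% higher). In K9M against rtTA it was 3 of 10, with Ccnd1 and Cdk4 higher and Ccnd3 lower, against 12.5% of all tested genes (7.09% higher and 5.43% lower). In K36M against K9M it was 4 of 10, all higher (Ccnd3, Cdk6, Rbl1 and E2f2), against 27.9% (14.5% higher and 13.4% lower). The lowest of all 9 libraries was rtTA 1 for 5 of 10 members (Ccnd2, Rb1, Rbl1, E2f1 and E2f2). The highest was K36M 3 for 5 of 10 (Ccnd1, Ccnd2, Cdk6, Rbl1 and Rbl2). Over genes above 1 RPKM in every library, a median ratio to the geometric mean of the 9 libraries was taken. This ratio was lowest in rtTA 1 (0.960) and highest in K36M 3 (1.03). The share of all tested genes that were lowest in rtTA 1 or highest in K36M 3 was not counted. Without rtTA 1, the K36M against rtTA difference was -0.22 for E2f2 and -0.0031 for E2f1, and without rtTA 2 it was 0.38 for E2f1. Ccnd1 was not lowest in rtTA 1, and without that library its difference was 0.89 in K36M (limma adjusted p = 0.0145) and 0.80 in K9M (limma adjusted p = 0.0465).

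Across the 9 libraries, with group means removed, the members that moved together most were Ccnd2 with E2f2 (Pearson r = 0.930) and Ccnd2 with Rbl1 (0.904). Ccnd1 did not follow these: its r after group means was -0.335 with Ccnd2, -0.387 with E2f2 and -0.343 with Rbl1. With Cdk4 it was -0.114. Over all members it ran from -0.711 with Rb1 to 0.016 with Cdk6. The libraries differ in depth and in the marker sums given above. The part of these differences in the r values was not tested, and the r values are a description.

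The rest of the pathway was read from 9 lists with 97 genes, all tested. In K36M against rtTA limma called 0 of them higher and 4 lower (0.572% and 0.928% of all tested genes), and in K9M against rtTA 0 either way. At an unadjusted p under 0.05 there were 38 higher and 9 lower in K36M against rtTA, where 10.2% and 8.86% of all tested genes were. In K9M against rtTA there were 8 higher and 4 lower, where 4% and 3.11% were, and in K36M against K9M 22 higher and 6 lower, where 9.31% and 9.48% were. The 4 falls in K36M were all in the list of 11 genes labelled upstream inducers of D cyclins. It holds Myc, Mycn, Stat5a, Stat5b, Fos, Jun, Junb, Egr1, Foxo1, Foxo3 and Ctnnb1. Activators and repressors of D cyclins were not separated in it, so its medians are not a measure of induction. Fos fell to 163 ± 45.0 RPKM in K36M, against 454 ± 16.7 in rtTA, and Egr1 fell to 24.2 ± 9.74 RPKM in K36M, against 122 ± 47.4 in rtTA (SD, n = 3 each). In K9M, Fos stood at 208 ± 30.6 RPKM and Egr1 at 32.6 ± 2.96, all below rtTA without passing (-1.13 and -1.81, limma adjusted p = 0.115 and 0.116). Fos and Junb (fold changes -1.51 and -1.11, limma adjusted p = 0.0164 for both) and Jun and Egr1 (-1.94 and -2.30, limma adjusted p = 0.0183 for both) encode immediate early transcription factors, of which Jun is known as an activator of Ccnd1 in cultured cells. All 4 calls were lost when K36M 1, rtTA 2 or rtTA 3 was left out and when the fit held only K36M and rtTA. Those of Junb, Jun and Egr1 were also lost when K36M 3 was left out, and those of Jun and Egr1 with no filter (adjusted p up to 0.102 over these settings). The median of the 11 genes in K36M was -0.47 (-0.16 without K36M 1 and -0.30 without rtTA 2). In K9M it was -0.22 with 0 called (-0.12 without K9M 2 and -0.36 without rtTA 1).

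Of 28 E2F target replication genes, 28 had a positive fold change in K36M against rtTA, with a median of 0.32 and 17 at an unadjusted p under 0.05, and in K9M against rtTA 27 were positive with a median of 0.23 and 6 at that p. Without rtTA 1, 26 of 28 were positive in K36M with a median of 0.23, and 24 of 28 in K9M with a median of 0.14. Cdc45, a helicase component (0.52, limma adjusted p = 0.0865), and Rrm2, a ribonucleotide reductase subunit (0.55, limma adjusted p = 0.0924), did not pass in K36M. Of 20 mitotic genes, 20 were positive in K36M with a median of 0.42, whereas in K9M 14 were, with a median of 0.05 (9 and -0.028 without K9M 2). Among all tested genes 52.3% were positive in K36M and 51.3% in K9M, and 10.2% and 4% were higher at an unadjusted p under 0.05. Ccnf, a cyclin of an SCF ubiquitin ligase, and Plk1, a mitotic kinase, were called higher in K36M against K9M (0.69, limma adjusted p = 0.0374, and 0.67, limma adjusted p = 0.0384), where 1.02% of all tested genes were called higher. At an unadjusted p under 0.05, 12 of the 20 mitotic genes were higher in K36M against K9M, against 9.31% of all tested genes. The calls of Ccnf and Plk1 ended without each K36M replicate but the second, without each K9M replicate, without rtTA replicate 3, with no filter and with only the groups compared, with adjusted p up to 0.148.

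**Figure D5:**
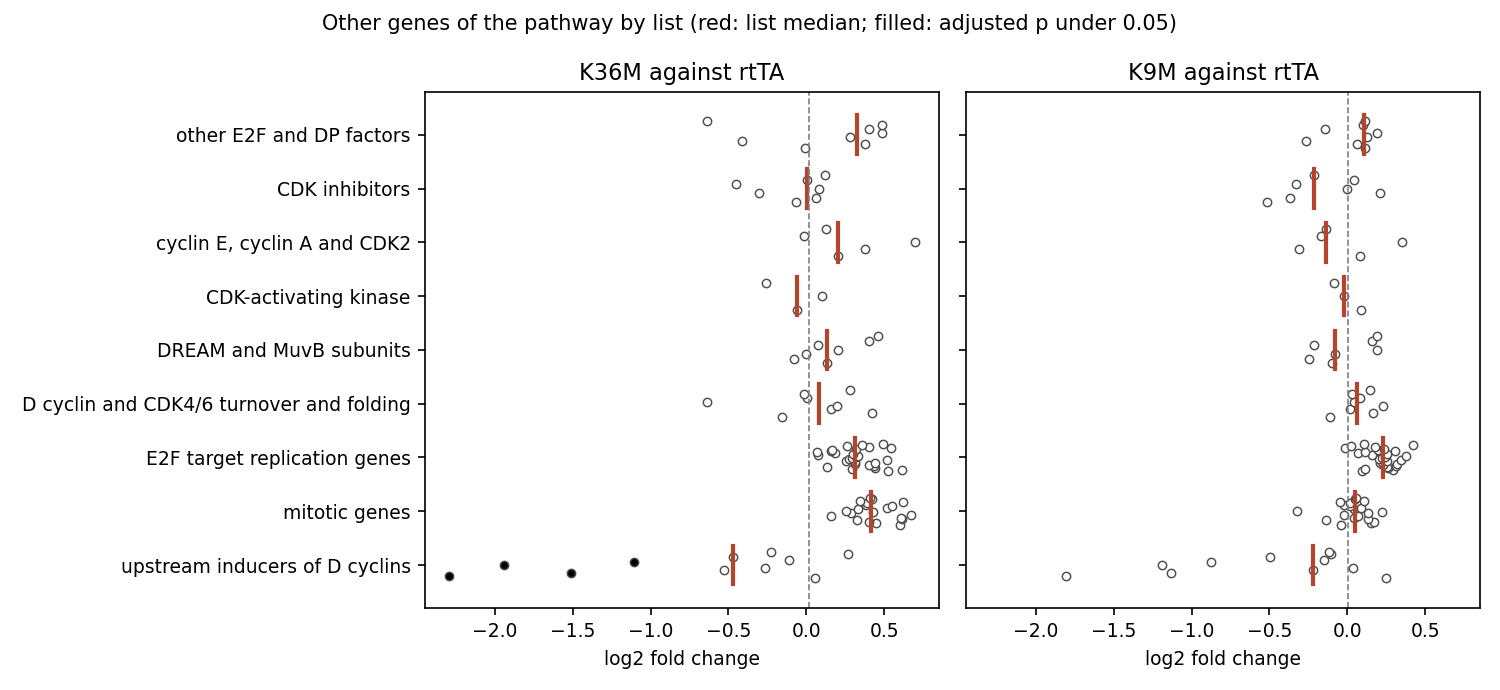
Log2 fold change (horizontal axis) of each gene of the 9 pathway lists in K36M and in K9M against rtTA, with the list median in red, the median of all tested genes as a dashed line and called genes filled. All 28 replication genes lie right of the line in K36M (median 0.32) and nearly all in K9M (median 0.23, with Rrm2 left of it at -0.016), and the mitotic medians are 0.42 in K36M and 0.05 in K9M.

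Among the partners of the RB family, E2f4, a repressive E2F, stood at 44.7 ± 1.72 RPKM in K36M against 34.5 ± 5.08 in rtTA (SD, n = 3 each). The E2f4 difference was 0.37 (limma adjusted p = 0.123). Tfdp2, which encodes a DP partner of E2Fs, stood at 7.56 ± 1.47 RPKM in K36M against 12.03 ± 2.18 in rtTA (-0.64, limma adjusted p = 0.1003). Of 8 other E2F and DP genes, 0 were called and the median was 0.33 in K36M. Of 7 DREAM and MuvB subunits, 0 were called; the histone-binding subunit gene Rbbp4 had 0.46 (limma adjusted p = 0.0711) and Mybl2, which encodes B-MYB, had 0.40 (limma adjusted p = 0.274; 0.25 without rtTA 1).

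The CDK inhibitors showed no call among 7 genes, with medians of 0.0047 in K36M and -0.21 in K9M against rtTA. Cdkn1c, which encodes p57, stood at 2.83 ± 0.620 RPKM in K36M against 3.595 ± 0.634 in rtTA (-0.30, limma adjusted p = 0.385), and Cdkn2b, which encodes p15, at 1.69 ± 0.646 in K36M against 2.71 ± 1.79 in rtTA (-0.45, limma adjusted p = 0.560; SD, n = 3 each). Cdkn2b stood at 4.72 RPKM in rtTA 1 and at 2.12 and 1.29 in the other rtTA libraries, and without rtTA 1 its difference was -0.030 and that of Cdkn1c -0.19. Of the cyclin E, cyclin A and CDK2 list 0 of 5 were called, though Ccne2 had 0.70 (limma adjusted p = 0.0637) and Ccne1 had 0.38 (limma adjusted p = 0.249) in K36M. The CDK-activating kinase genes had 0 of 3 called, with Mnat1 at -0.26 (limma adjusted p = 0.209) and Cdk7 at 0.10 (limma adjusted p = 0.695). In the list of D cyclin turnover and folding, 1 of 8 was called lower in K36M against K9M, where 1.5% of all tested genes were, namely Fbxo4, which encodes an F-box protein tied to cyclin D1 turnover. It fell to 3.72 ± 0.261 RPKM in K36M, against 6.27 ± 0.312 in K9M (SD, n = 3 each; -0.68, limma adjusted p = 0.0383), and in K36M against rtTA it had -0.64 (limma adjusted p = 0.0577, and 0.0413 with the replicate block). The Fbxo4 call ended without each K36M and K9M replicate and without rtTA replicate 2, with no filter, with a filter at RPKM 5 and with quantile normalization, with adjusted p up to 0.148.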

How the data were processed

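The authors deposited RPKM values for 9 libraries. The submitters' processing notes name CASAVA 1.7, STAR and mm10; a STAR version, a counting rule and a use of strand are not given there. PolyA RNA is the molecule in the labels, although their protocol cites a kit for total RNA. Of the identifiers, 37607 matched GENCODE M21 on mm10, whose coordinates and exonic lengths are used. RPKM steps gave approximate depths: with these lengths of the values of at most 20 reads, 50.6% to 52.2% were within 0.02 of a whole number. Copies of members were sought with blastn 2.17.0 (at least 90% identity over 300 bases).

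Values were analysed as log2(RPKM + 0.5), which understates changes of low genes, for the 12926 genes that reached RPKM 1 in 3 or more libraries. limma 3.58.1 in R 4.3.3 fitted 3 group means to all 9 libraries (eBayes with trend, two-sided, Benjamini-Hochberg over all tested genes, called at adjusted p under 0.05), and was tested on simulated data. Groups come from the sample titles, and the design text in the series gives 1 independent mouse for each replicate. Members and lists were chosen with earlier results of these data known. All 10 members are named; of each list, up to 4 called genes per comparison, or else the 2 with the smallest p in K36M against rtTA; and the 3 genes most like each member, of which those of the genes described at length are given. Same-number libraries of K36M and rtTA deviated together (correlations 0.414, 0.369 and 0.377), a pairing taken from the data; K9M numbers did not pair with either by the same rule. The 18 alternatives were other pseudocounts, filters and scalings, library weights, a replicate block, only the groups compared and leaving out each library.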

Additional observations from a re-analysis of the deposited data

How the results depend on the processing

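RPKM values and 3 mice a group limit the precision: the 95% interval of E2f2 in K36M against rtTA ran from -0.43 to 0.48 and that of Ccnd1 from 0.62 to 1.09. The direction of the Ccnd1 fold change against rtTA held in all 18 alternatives.

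The count of members called in K9M against rtTA, 1, was 0 with no filter, median ratio scaling, quantile normalization, the replicate block (Ccnd1 limma adjusted p = 0.0558) and only the groups compared, and 0 to 1 without single libraries. In K36M against rtTA it was 0 to 1 without single libraries, and in K36M against K9M it stayed at 0 throughout. The count of all genes called in K9M against rtTA, 15, was 4 with no filter, 8 with quantile normalization, 62 with library weights and 3 to 32 without single libraries. In K36M against rtTA, 194 was 76 with no filter, 129 with RPKM of at least 5, 301 with the replicate block, 26 with only the groups compared and 10 to 397 without single libraries. In K36M against K9M, 326 was 118 with no filter, 589 with library weights, 595 with the replicate block and 15 to 506 without single libraries. Replicate numbers of K9M did not pair with the other groups, so block values of its comparisons are given only here.

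Differences near 0 changed sign in some settings, and none of them was called. In K9M against rtTA, Rb1 had -0.014 with library weights and -0.022 to 0.18 without single libraries, and E2f1 had -0.030 to 0.35 without them. In K36M against rtTA, Ccnd2 had -0.014 and Ccnd3 -0.0098 with quantile normalization, and E2f2 had -0.012 with median ratio scaling and -0.17 with library weights. Without single libraries, Ccnd2 ranged from -0.020 to 0.16, Ccnd3 from -0.017 to 0.18, Rbl2 from -0.12 to 0.083, E2f1 from -0.0031 to 0.38 and E2f2 from -0.22 to 0.20. In K36M against K9M, E2f1 had -0.0081 with quantile normalization, and without single libraries Ccnd2 ranged from -0.11 to 0.025, Cdk4 from -0.035 to 0.097 and E2f1 from -0.015 to 0.079. The cause of these shifts was not tested.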
